A study of Zea mays with 12 samples.

Results

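Transcript levels in maize endosperm that carried lesions in both of its best known zein activators were compared with those in wild type. Of the 12 libraries of the series, 6 enter the comparison, 3 of the double genotype PbfRNAi;o2 and 3 of wild type (WT), all from endosperm at 16 days after pollination. The double genotype carries the opaque2 (o2) mutation together with a transgene that silences, by RNA interference, the gene of the prolamin-box binding factor (PBF). WT carries neither lesion. The opaque2 mutant alone (o2) and the RNA interference line alone (PbfRNAi), with 3 libraries each, are used where the double genotype is set against the single lesions. Plants of the 4 genotypes were grown in the field. The labels name no o2 allele, construct promoter, number of transformation events or genetic background. Of 39448 gene models, 16028 had an FPKM (fragments of a transcript per unit of its length and of mapped sequence, the deposited measure) of at least 1 in at least 3 of the 6 libraries and were tested.

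The endosperm is the storage tissue of the maize kernel, and zeins are its main storage proteins. The opaque2 gene encodes O2, a transcription factor of the bZIP class, and PBF belongs to the Dof class, and both bind motifs in zein promoters and activate zein genes. Zeins are made on the rough endoplasmic reticulum (ER) and packed there into protein bodies, with beta and gamma zeins at the surface and alpha and delta zeins inside. Because zeins hold almost no lysine, endosperm with few zeins, such as that of opaque2 mutants, is known for its higher lysine content. The comparison asks which transcripts differ when both factors are affected together.

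Each gene was tested on log2(FPKM + 1) with limma and Benjamini-Hochberg adjustment, once as deposited and once after each library was divided by its median ratio to the other libraries (median-of-ratios scaling). A gene is called higher or lower below only where its adjusted p was under 0.05 in the same direction on both scales. Whether the 3 replicates of a genotype came from separate plants or ears is not stated in the labels, so p-values measure the spread between these libraries, which may be technical. FPKM carries no read depth, and no counting error is given. FPKM sums ran from 493930 to 509931 in the double genotype and from 430405 to 472141 in WT. Models at FPKM 1 or more numbered 15925 to 16413 in the double genotype and 14904 to 15059 in WT. Replicate 1 stood apart from replicates 2 and 3 in both genotypes: across genes, replicates 2 and 3 correlated at r = 0.995 in the double genotype and 0.991 in WT, and replicate 1 with either of them at 0.953 to 0.960.

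The o2 transcript was nearly absent from the double genotype and the main pbf1 transcript was lower. The o2 model stood at 0.804, 0.312 and 0.270 FPKM in the double genotype, against 229.7, 195 and 189 FPKM in WT. Every double-genotype library lay far below every WT library, and the ratio of WT to double-genotype means was 442 (log2 change -7.15 ± 0.16, SE, n = 3 each, limma adjusted p = 1.84e-06). Without double-genotype replicate 1 the ratio was 703. The reference table gives the symbol pbf1 to a pair of models. GRMZM2G146283, the more abundant, had 64.8, 58.7 and 54.9 FPKM in the double genotype, against 110.3, 102 and 97.6 FPKM in WT. The groups did not overlap, and its level in the double genotype was 0.575 times that of WT (log2 change -0.79 ± 0.10 SE as deposited and -1.36 ± 0.08 after scaling, adjusted p = 0.000671 and 7.33e-05). GRMZM2G146267 had 15.2, 15.2 and 13.2 FPKM in the double genotype, against 12.6, 12.3 and 11.5 FPKM in WT, and was not called (adjusted p = 0.0862 as deposited and 0.0523 after scaling). It is not given which of the models the construct targets. In the single genotypes GRMZM2G146283 had 242, 307 and 331 FPKM in o2 and 56.7, 44.1 and 39.1 FPKM in PbfRNAi. Its level in the double genotype was thus lower than in o2 (log2 change -2.27 ± 0.15, SE, adjusted p = 4.36e-07) and was not called different from that in PbfRNAi (log2 change 0.36 ± 0.15, adjusted p = 0.0705).

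Most gene models moved upward on the FPKM scale. As deposited, 8987 of 16028 genes (56.1%) were higher and 688 (4.29%) lower in the double genotype, with a median log2 change of 0.50. The 10 most abundant models of a library held 20.5% ± 1.93 of the FPKM sum in the double genotype and 40.3% ± 1.28 in WT (SD, n = 3 each, exact permutation test, two-sided p = 0.1, the smallest that 3 against 3 libraries allow). FPKM is relative to the mapped sequence of a library, so values of other genes can rise where abundant transcripts take less of it. The source of the upward shift was not tested. Median-of-ratios scaling removed a shift of 0.49 (log2), after which 3084 genes (19.2%) were higher and 2271 (14.2%) lower. On both scales 3084 genes (19.2%) were higher and 688 (4.29%) lower, and these shares are the background for the gene lists below. Of the 688 lower genes, 674 had no overlap between the 6 libraries, as did 10926 (68.2%) of all tested genes. When libraries were instead scaled to their FPKM sum outside the 100 most abundant models, a scaling chosen after seeing the data, 2203 genes were higher and 3567 lower. The direction of a small change therefore depends on the scaling, whereas 2203 genes (13.7%) were higher and 688 (4.29%) lower on all 3 scales. Without WT replicate 2, 2025 genes were higher on both scales, and without double-genotype replicate 2 or 3 or WT replicate 2 or 3, 1311 to 1403 were lower after scaling. With replicates 2 and 3 of each genotype averaged into 1 library, 955 were higher and 325 lower on both scales. With the replicate number as a block in the model, 3991 were higher and 896 lower on both scales. List counts under either setting have these counts of 16028 genes as their background. With at least a 2-fold change after scaling there were 953 higher and 493 lower genes, and with at least an 8-fold change 64 higher and 34 lower genes.

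**Figure D1:**
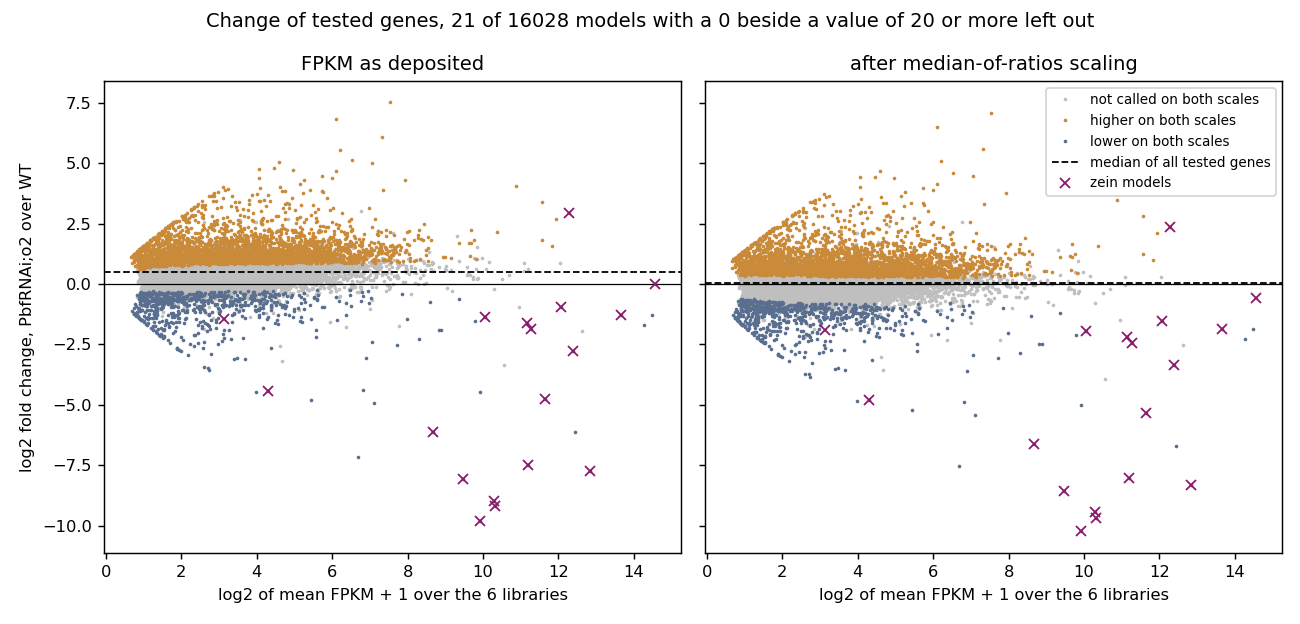
Log2 fold change of double-genotype over WT libraries against the log2 mean FPKM of each tested gene, as deposited (left) and after median-of-ratios scaling (right), with genes called higher or lower on both scales in colour, zein models as crosses and the median of all tested genes as a dashed line. The 21 models with a 0 in at least 1 library and 20 FPKM or more in another are left out. Among them are gz27 and GRMZM2G437040, at 0 in all 3 libraries of 1 genotype, so some large called changes are not drawn. The median sits at 0.50 on the left and at 0.02 on the right, and most zein crosses lie far below 0 on both.

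Zein transcripts fell. Of 25 tested zein models, 18 were lower in the double genotype, against 4.29% of all tested genes, and 2 were higher, z1A2_1 and gz27. The 25 models had a median log2 change of -2.78 as deposited and -3.36 after scaling, against 0.50 and 0.02 for all tested genes. The 26 models of the zein list held 11.9%, 15.6% and 14.4% of the FPKM sum in the double-genotype libraries, against 33.3%, 25.7% and 28.0% in WT. Abundant models without a name are not counted in these shares, whatever they encode. The groups did not overlap, and the means were 13.98% ± 1.89 and 29.0% ± 3.90 (SD, n = 3 each, exact permutation test, two-sided p = 0.1, the smallest possible). Several zein models have a 0 in at least 1 of the 6 libraries and a high level in another, and a 0 can be a failed estimate. Without these models the shares were 8.60% to 10.6% in the double genotype and 20.2% to 25.6% in WT. Zein genes are near-identical copies, and the same read can be assigned to one copy or another, so the level of a single model is uncertain. The sums hold models listed at 0 too, and are also given without them.

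The 22-kDa alpha-zeins, the subfamily best known as direct targets of O2, had all but disappeared. Their summed level was 40.9, 402 and 358 FPKM in the double-genotype libraries, against 45780.3, 36442 and 31526 FPKM in WT, and their share of the FPKM sum was 0.00827%, 0.0788% and 0.0705%, against 9.70%, 8.30% and 7.33%. Without the models listed at 0 in at least 1 library and high in another, the sums were 18.6, 276 and 245 FPKM in the double genotype, against 17695, 36042 and 31141 FPKM in WT. The groups lay far apart, and the lowest double-genotype library was replicate 1.

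Of 11 tested 22-kDa models, 10 were lower and none was higher, with a median log2 change of -7.48 as deposited. The most abundant in WT, z1C1_8, had 10.1, 160.3 and 150.2 FPKM in the double genotype, against 9362, 18327 and 15745 FPKM in WT (log2 change -7.75 ± 0.98 SE as deposited and -8.31 ± 1.02 after scaling, adjusted p = 0.000677 and 0.0014). z1C1_12 had 1.19, 1.13 and 0.794 FPKM in the double genotype, against 1075, 2644 and 2062 FPKM in WT. It stood near 1 FPKM in the double genotype, and the groups were far apart, with a WT to double-genotype ratio of means of 1856. z1C1_4 had 0.808, 10.8 and 4.33 FPKM in the double genotype, against 1579, 3205 and 2773 FPKM in WT. Its WT to double-genotype ratio was 475, or 980.2 without double-genotype replicate 2, since that library was the highest of the 3. Likewise z1C1_2 had a ratio of 652, or 1156 without that library, and z1C1_5 of 279, or 559. The remaining called models were z1C1_7, z1C1_19, z1C1_6, z1C1_1 and z1C1_11, with log2 changes from -7.48 for z1C1_7 to -6.13 for z1C1_19. z1C1_1 and z1C1_11 are each listed at 0 in 2 of the 3 double-genotype libraries, and z1C1_6 in 1. The model z1C2 is listed at 0 in WT replicates 2 and 3 and stood at 27678 FPKM in WT replicate 1, with 22.2, 125 and 112 FPKM in the double genotype, so no fold is given.

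The 19-kDa alpha-zeins were not uniformly lower. Their summed level was 10119, 34095 and 31777 FPKM in the double genotype, against 51994, 30527 and 46867 FPKM in WT. Replicate 1 of the double genotype was the lowest of the 6, and replicates 2 and 3 of the double genotype exceeded WT replicate 2, the lowest WT library, in which 2 models of the subfamily described below are listed at 0. Without the models listed at 0 in at least 1 library and high in another, the sums were 7045, 22396 and 20995 FPKM in the double genotype, against 18125, 30527 and 22904 FPKM in WT, overlapping (exact permutation test, two-sided p = 0.4). Of 9 tested models, 5 were lower and 1 was higher. z1A1_6 had 629, 1517 and 1343 FPKM in the double genotype, against 2714, 4343 and 3102 FPKM in WT (log2 change -1.61 ± 0.35 SE as deposited and -2.19 ± 0.40 after scaling, adjusted p = 0.00651 and 0.00605), and its groups did not overlap. z1A1_7 had 335, 792 and 725 FPKM in the double genotype, against 1148, 1999 and 1410.3 FPKM in WT, and its call was lost without WT replicate 2 (adjusted p = 0.0502). z1A1_2 had 233, 2833 and 2848 FPKM in the double genotype, against 6614, 10870.1 and 8521 FPKM in WT, with 233 FPKM in double-genotype replicate 1 far below the other 2. The calls of z1A1_2, z1A2_3 and z1A1_5 were lost when single libraries were left out: that of z1A1_2 was lost without WT replicates 1, 2 or 3 (adjusted p from 0.0686 to 0.106), that of z1A2_3 without WT replicates 1, 2 or 3 (adjusted p from 0.0735 to 0.118), and that of z1A1_5 without double-genotype replicates 1 or 3 or WT replicates 2 or 3 (adjusted p from 0.0585 to 0.147).

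One 19-kDa model went the other way. z1A2_1 had 3788, 11813 and 10872 FPKM in the double genotype, against 806, 1313 and 996 FPKM in WT. The groups did not overlap, and the double genotype was 8.50 times as high (log2 change 2.95 ± 0.44 SE as deposited and 2.37 ± 0.49 after scaling, adjusted p = 0.00131 and 0.0098). In the single genotypes z1A2_1 had 449, 217 and 219.9 FPKM in o2 and 23509.9, 22673 and 22321 FPKM in PbfRNAi. The double genotype was higher than o2 (log2 change 4.82 ± 0.41, SE, adjusted p = 5.01e-06) and lower than PbfRNAi (log2 change -1.54 ± 0.41, adjusted p = 0.00965). Its near copy in name, z1A2_2, had 1847, 7290.4 and 6682 FPKM in the double genotype, 22531 and 23963 FPKM in WT replicates 1 and 3, and is listed at 0 in WT replicate 2. The model z1A1_3/z1A1_4 is listed at 0 in WT replicates 2 and 3, with 1227, 4408 and 4100.0 FPKM in the double genotype and 11338 FPKM in WT replicate 1. z1A1_8, the least abundant of the subfamily, had 0.569, 6.15 and 6.64 FPKM in the double genotype, against 14.3, 9.69 and 9.70 FPKM in WT, and was called lower only after scaling (adjusted p = 0.0645 as deposited, 0.0376 after scaling). Its deposited-scale call was gained without double-genotype replicates 1 or 3 (adjusted p = 0.0162 and 0.0402), and its scaled call was lost without any 1 WT replicate (adjusted p from 0.0887 to 0.103). With replicates 2 and 3 of a genotype averaged into 1 library, an alternative added after seeing the data, 1 model of the subfamily was lower and 0 higher.

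The cysteine-rich and methionine-rich zeins of the protein body divided by member. gz50, the 50-kDa gamma-zein, had 185, 273 and 232 FPKM in the double genotype, against 5406, 7351 and 5825 FPKM in WT. All 3 double-genotype libraries lay far below all 3 WT libraries, a WT to double-genotype ratio of 26.9 (log2 change -4.75 ± 0.18 SE as deposited and -5.33 ± 0.23 after scaling, adjusted p = 1.06e-05 and 1.92e-05). bz15, the 15-kDa beta-zein, had 6875, 8106 and 7068 FPKM in the double genotype, against 26488, 15282 and 13954 FPKM in WT (log2 change -1.28 ± 0.26 SE as deposited and -1.86 ± 0.27 after scaling, adjusted p = 0.00505 and 0.00243), with no overlap. dzs18, the 18-kDa delta-zein, had 0.532, 0.573 and 0.633 FPKM in the double genotype, against 64.3, 21.7 and 24.3 FPKM in WT, a WT to double-genotype ratio of 63.4, or 39.7 without WT replicate 1 (adjusted p = 0.000148). gz16, the 16-kDa gamma-zein and the most abundant named model in the double genotype, had 28371, 23071 and 21222 FPKM in the double genotype, against 27463, 23231 and 22151 FPKM in WT. These libraries overlapped and the model was not called (log2 change -0.01 ± 0.19, SE, adjusted p = 0.973 as deposited, and -0.59 ± 0.20, adjusted p = 0.0641, after scaling, or 0.0134 after scaling without double-genotype replicate 1). gz27, the 27-kDa gamma-zein, had 13241, 13686 and 12457 FPKM in the double genotype and is listed at 0 in all 3 WT libraries, so neither a fold nor its call is read. Without gz27, the other 4 models of this group held 7.17%, 6.17% and 5.62% of the FPKM sum in the double genotype, against 12.6%, 10.4% and 9.75% in WT, with no overlap (exact permutation test, two-sided p = 0.1, the smallest possible). With gz27, which is 0 in the WT values, the double genotype held 9.85%, 8.85% and 8.08% (p = 0.2 by the same exact test).

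**Figure D2:**
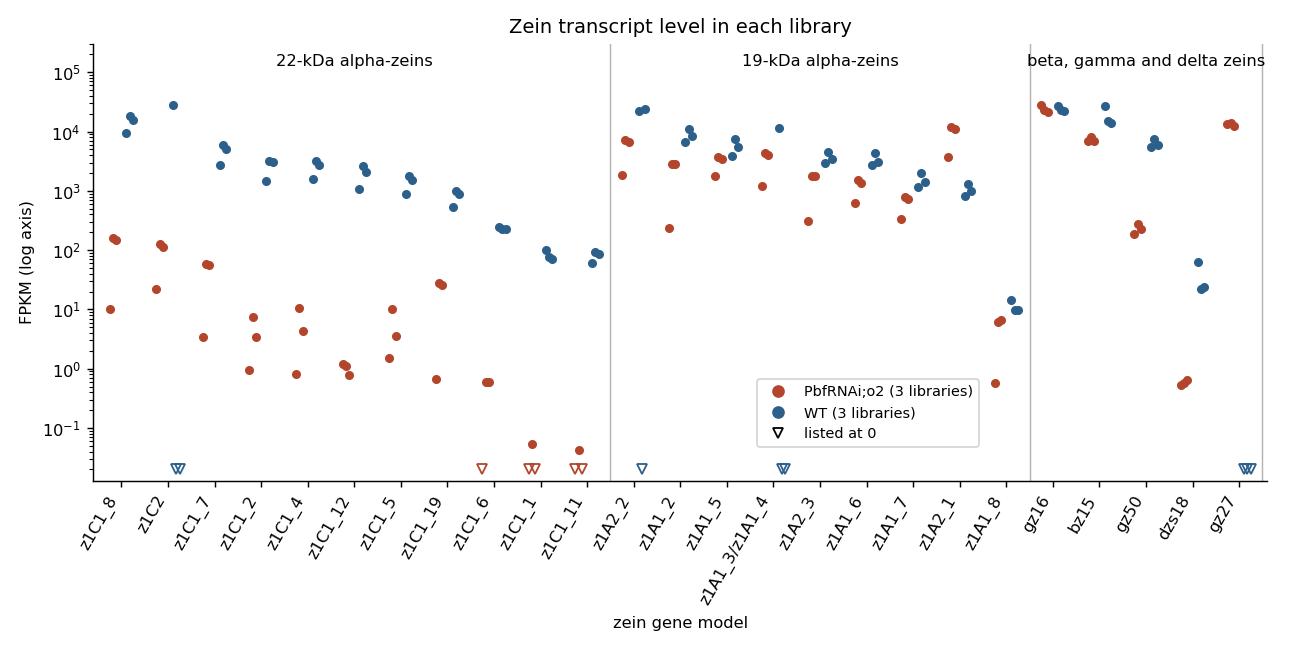
FPKM on a log axis of each tested zein model in the 3 double-genotype libraries (left of each pair) and the 3 WT libraries (right), ordered within a subfamily by the WT mean, with open triangles for values listed at 0. The 22-kDa alpha-zeins of the double genotype stay at or below 160.3 FPKM, gz16 overlaps between the genotypes, and z1A2_1 is the one model with no value at 0 that is called higher in the double genotype.

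Against the single lesions, zein models were compared one by one. On both scales 7 of the 25 zein models were lower in the double genotype than in o2 (7.29% of all tested genes) and 1 was higher (12.8%), while 19 were lower than in PbfRNAi (5.04%) and none was higher (15.9%). These comparisons share the double-genotype libraries, and the difference between the counts was not tested. z1C1_8 had 10.1, 160.3 and 150.2 FPKM in the double genotype, 2425, 623 and 597 FPKM in o2, 7711, 10821 and 9928 FPKM in PbfRNAi and 9362, 18327 and 15745 FPKM in WT. The double genotype was lower than o2 (log2 change -3.90 ± 0.92, SE, adjusted p = 0.0116). gz50 had 5258, 5819.6 and 5635 FPKM in o2 and 514, 2046 and 1311 FPKM in PbfRNAi. The double genotype lay below either (log2 change -4.61 ± 0.38 against o2 and -2.29 ± 0.38 against PbfRNAi, adjusted p = 4.26e-06 and 0.000692). bz15 had 9699.9, 4087 and 3991 FPKM in o2 and 14258, 17024 and 16424 FPKM in PbfRNAi, and was lower in the double genotype than in PbfRNAi only (adjusted p = 0.0169, against 0.392 for the difference from o2).

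Reserve proteins outside the zeins were higher. leg1, a legumin-type globulin, had 6102, 5169 and 4951 FPKM in the double genotype, against 1889, 1843 and 1751 FPKM in WT (log2 change 1.56 ± 0.13 SE as deposited and 0.98 ± 0.13 after scaling, adjusted p = 0.000146 and 0.00204). Every double-genotype library exceeded every WT library. glb1, a vicilin-type globulin known best from the embryo, had 39.8, 147 and 159.8 FPKM in the double genotype, against 5.89, 13.95 and 13.2 FPKM in WT, and its call was lost without double-genotype replicates 2 or 3 or WT replicate 1 (adjusted p from 0.052 to 0.0578). Replicate 1 was the lowest in both genotypes for glb1. These were the 2 tested members of a list of 3. In whole tissue, a larger number of cells of a type cannot be told apart from more of a transcript per cell, here or for the genes that follow.

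Among 7 tested endosperm regulators 2 were higher and 2 lower, against 19.2% and 4.29% of all tested genes. fl3, which encodes a PLATZ protein known to interact with RNA polymerase III components, was among the most abundant transcripts of the double genotype. It had 6992, 5133 and 4497 FPKM in the double genotype, against 443, 612 and 513 FPKM in WT. The lowest double-genotype library lay well above the highest WT library, and the means differed 10.6-fold (log2 change 3.39 ± 0.20 SE as deposited and 2.82 ± 0.20 after scaling, adjusted p = 4.15e-05 and 0.000126). In the single genotypes fl3 had 1182, 4614 and 4156 FPKM in o2 and 2339, 2589 and 2092 FPKM in PbfRNAi. The naked endosperm genes, which encode INDETERMINATE-domain transcription factors required for aleurone identity, moved apart. nkd1 had 111, 185 and 187 FPKM in the double genotype, against 58.2, 50.0 and 49.8 FPKM in WT (log2 change 1.56 ± 0.21 SE as deposited and 0.99 ± 0.24 after scaling, adjusted p = 0.000831 and 0.0188), with its scaled call lost without double-genotype replicates 2 or 3 or WT replicates 2 or 3 (adjusted p from 0.0608 to 0.066). nkd2 had 12.8, 18.0 and 18.4 FPKM in the double genotype, against 29.6, 35.0 and 31.9 FPKM in WT, and was lower (log2 change -0.95 ± 0.16 SE as deposited and -1.49 ± 0.19 after scaling, adjusted p = 0.002 and 0.00145). GBF1, a bZIP factor by name, had 0.885, 2.01 and 2.14 FPKM in the double genotype, against 4.84, 5.17 and 4.41 FPKM in WT, also lower (adjusted p = 0.00305).

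ER chaperones and protein disulfide isomerases, which fold secretory proteins in the compartment where zeins are deposited, were higher as a group by count. Of 23 tested members 12 were higher and none lower, against 19.2% and 4.29% of all tested genes. The median log2 change was 1.07 as deposited and 0.49 after scaling. Their summed level was 2283, 2608 and 2736 FPKM in the double genotype, against 1016, 769.9 and 769 FPKM in WT, with no overlap. bip1, encoding the ER Hsp70 chaperone BiP, had 359, 433 and 437 FPKM in the double genotype, against 115, 82.8 and 80.6 FPKM in WT (log2 change 2.14 ± 0.16 SE as deposited and 1.57 ± 0.17 after scaling, adjusted p = 9.21e-05 and 0.000722). bip2 had 73.2, 127 and 129 FPKM in the double genotype, against 17.0, 17.8 and 16.2 FPKM in WT, a 6.46-fold difference (adjusted p = 0.00014). Both BiP genes were separated between the genotypes in all 6 libraries. PDIL1-1, the most abundant disulfide isomerase, had 1019, 1319.6 and 1431 FPKM in the double genotype, against 478, 339 and 340.1 FPKM in WT (log2 change 1.71 ± 0.19 SE as deposited and 1.13 ± 0.20 after scaling, adjusted p = 0.000386 and 0.00609). PDIL1-2 was low in WT and showed the widest gap, with 20.9, 38.1 and 38.0 FPKM in the double genotype, against 1.64, 2.16 and 1.99 FPKM in WT (ratio 16.8, adjusted p = 6.12e-05). PDIL5-1 (GRMZM2G073628) had 166, 131 and 139.5 FPKM in the double genotype, against 63.4, 68.9 and 74.0 FPKM in WT, and its scaled call was lost without double-genotype replicate 3 or WT replicate 2 (adjusted p from 0.0537 to 0.0552).

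The lectin chaperones calreticulin and calnexin and a further isomerase were picked after their values were seen. crt2 had 90.1, 84.5 and 81.4 FPKM in the double genotype, against 44.1, 28.2 and 27.6 FPKM in WT. cnx had 65.5, 80.1 and 81.8 FPKM in the double genotype, against 28.7, 25.3 and 25.5 FPKM in WT. PDIL2-3 had 104, 104 and 105 FPKM in the double genotype, against 39.0, 19.7 and 18.0 FPKM in WT. All 3 were higher, with scaled adjusted p of 0.00862 for crt2, 0.0031 for cnx and 0.0041 for PDIL2-3. With libraries scaled to the FPKM sum outside the 100 most abundant models, 10 of the 12 members were still higher, and with replicates 2 and 3 averaged into 1 library 4 were. Of the 23 tested members, 5 were higher in the double genotype than in o2 on both scales, against 12.8% of all tested genes. Against PbfRNAi 5 were higher, beside 15.9% of all tested genes. For bip1 the values were 200.2, 136 and 133 FPKM in o2 and 737, 356 and 389 FPKM in PbfRNAi. The double genotype exceeded o2 (log2 change 1.40 ± 0.26, SE, adjusted p = 0.0021) and was not called different from PbfRNAi (log2 change -0.20 ± 0.26, adjusted p = 0.561). Neither tested gene of the protein body assembly list was called on both scales. Opaque10 had 48.3, 54.3 and 51.6 FPKM in the double genotype, against 43.5, 42.1 and 39.5 FPKM in WT. FL1, a membrane protein of the protein body, had 29.5, 41.0 and 42.8 FPKM in the double genotype, against 23.6, 36.3 and 39.1 FPKM in WT, and the sign of both changes turned with scaling. The log2 change of Opaque10 was 0.29 ± 0.09 (SE) as deposited and -0.27 ± 0.11 after scaling (adjusted p = 0.028 and 0.0959), and that of FL1 0.20 ± 0.22 and -0.36 ± 0.26 (adjusted p = 0.447 and 0.33). The Opaque10 call on the deposited scale was lost without double-genotype replicates 2 or 3 or WT replicates 2 or 3 (adjusted p from 0.0834 to 0.109).

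Genes of the translation machinery were higher. Of 33 tested ribosomal protein genes 23 were higher and none lower, against 19.2% and 4.29% of all tested genes. The median log2 change was 1.29 as deposited and 0.72 after scaling. Their summed level was 3438, 3489 and 3718 FPKM in the double genotype, against 1602, 1461 and 1538 FPKM in WT. Both groups were narrow and did not overlap. The small-subunit gene rps4 (GRMZM2G125271) had 218, 259 and 272 FPKM in the double genotype, against 90.6, 90.6 and 90.2 FPKM in WT (log2 change 1.45 ± 0.10 SE as deposited and 0.88 ± 0.14 after scaling, adjusted p = 7.88e-05 and 0.00366). Its second model rps4 (GRMZM2G035017) had 240.2, 269 and 269 FPKM in the double genotype, against 117, 108 and 114 FPKM in WT. arpp3, an acidic ribosomal stalk protein, had 252, 227 and 249 FPKM in the double genotype, against 113, 94.9 and 103 FPKM in WT (scaled adjusted p = 0.00274). rps6-2 had 247, 241 and 256 FPKM in the double genotype, against 134, 109 and 112 FPKM in WT, and its scaled call was lost without double-genotype replicates 2 or 3 or WT replicates 2 or 3 (adjusted p from 0.0504 to 0.0594). On all 3 scales 21 of the 33 were higher, and with replicates 2 and 3 averaged 10 were.

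Elongation factor 1-alpha genes, whose protein is known to correlate with lysine content in maize endosperm, followed. Of 4 tested members 3 were higher, against 19.2% of all tested genes. elfa3 had 296, 282 and 289 FPKM in the double genotype, against 104, 111 and 99.4 FPKM in WT (log2 change 1.46 ± 0.09 SE as deposited and 0.88 ± 0.10 after scaling, adjusted p = 4.15e-05 and 0.000825). elfa7 had 194, 164 and 174 FPKM in the double genotype, against 78.5, 71.0 and 76.2 FPKM in WT (scaled adjusted p = 0.00177). EF1A, the most abundant, had 745, 768 and 796 FPKM in the double genotype, against 357, 368 and 386 FPKM in WT, and its scaled call was lost without double-genotype replicates 2 or 3 or WT replicates 1, 2 or 3 (adjusted p from 0.0515 to 0.0916). elfa2, with 384, 427 and 467 FPKM in the double genotype, against 212, 201 and 234 FPKM in WT, was called as deposited and not after scaling (adjusted p = 0.000449 and 0.071, or 0.0124 after scaling without double-genotype replicate 1). With a replicate block, which sets libraries of the same number against each other, elfa2 was higher on both scales (adjusted p = 0.000413 and 0.0166). In each of these 4 genes the lowest double-genotype library exceeded the highest WT library. With replicates 2 and 3 averaged, 1 of the 4 was higher.

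Histone and replication genes were higher in part. Of 16 tested members 7 were higher and none lower, against 19.2% and 4.29% of all tested genes. The median log2 change was 1.38 as deposited and 0.88 after scaling. The summed level was 805, 969.6 and 1070.4 FPKM in the double genotype, against 198, 341 and 368 FPKM in WT. The histone H2B gene GRMZM2G071959 (histone2b1) had 290.2, 313 and 352 FPKM in the double genotype, against 63.2, 80.9 and 87.5 FPKM in WT (log2 change 2.04 ± 0.14 SE as deposited and 1.47 ± 0.18 after scaling, adjusted p = 6.9e-05 and 0.00133). GRMZM2G119071 (his2b2) had 102, 118 and 129 FPKM in the double genotype, against 12.8, 28.8 and 30.6 FPKM in WT. GRMZM2G149178, which carries histone H4 names, had 75.6, 76.1 and 91.1 FPKM in the double genotype, against 9.04, 21.9 and 21.3 FPKM in WT. GRMZM2G305046 (his2a1) had 149.6, 181 and 190.3 FPKM in the double genotype, against 26.3, 57.8 and 66.3 FPKM in WT, and its scaled call was lost without double-genotype replicates 2 or 3 or WT replicate 2 (adjusted p from 0.0534 to 0.0931). In these 3 genes WT replicate 1 was the lowest of the 6 libraries. With the replicate number as a block, which compares libraries of the same number, 12 members were higher, against 3991 of all 16028 tested genes. With replicates 2 and 3 averaged 4 were, against 955 of all tested genes.

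Heat shock genes differed between replicates, and their sums overlapped between the genotypes. Their summed level was 4976, 1146 and 1189 FPKM in the double genotype, against 1529.8, 603 and 625 FPKM in WT, and replicate 1 was the highest of its genotype in both. Of 15 tested members 4 were higher, against 19.2% of all tested genes. With the replicate block 10 were, against 3991 of all 16028 tested genes. With replicates 2 and 3 averaged 0 were, against 955. Hsp70 had 1388, 169 and 181 FPKM in the double genotype, against 405, 120.0 and 134 FPKM in WT. The small heat shock gene hsp18f had 852, 52.0 and 52.5 FPKM in the double genotype, against 195, 11.1 and 11.8 FPKM in WT. Neither was called without the block (adjusted p = 0.388 and 0.228). Within replicate numbers 1, 2 and 3, hsp18f was 4.37, 4.67 and 4.46 times as high in the double genotype as in WT. It was higher with the replicate block (adjusted p = 0.000103 as deposited and 0.000289 after scaling) and without replicate 1 of both genotypes (adjusted p = 6.14e-10 and 4.99e-08). The last 2 values rest on the spread between replicates 2 and 3, which correlated at r = 0.995 and 0.991. That spread may be technical. For Hsp70 the ratios within replicate numbers were 3.43, 1.40 and 1.35, and with the block it was called as deposited and not after scaling (adjusted p = 0.0346 and 0.368). Leaving out replicate 1 of a single genotype moves the ratio of means. For Hsp70 the ratio was 2.64, or 0.796 without double-genotype replicate 1 and 4.56 without WT replicate 1. For hsp18f it was 4.39, or 0.720 and 27.9 without the same libraries. hsp3 was steadier, with 150.1, 114 and 112 FPKM in the double genotype, against 56.8, 56.3 and 50.6 FPKM in WT (log2 change 1.17 ± 0.13 SE as deposited and 0.60 ± 0.10 after scaling, adjusted p = 0.000448 and 0.00516). Of the 4 called members only hsp3 kept its call whenever a single library was left out. HSP90-1 had 249, 115 and 119.9 FPKM in the double genotype, against 68.9, 31.7 and 31.8 FPKM in WT, and its scaled call was lost without double-genotype replicates 1 or 3 or WT replicates 2 or 3 (adjusted p from 0.0506 to 0.098). What set replicate 1 apart was not tested.

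**Figure D3:**
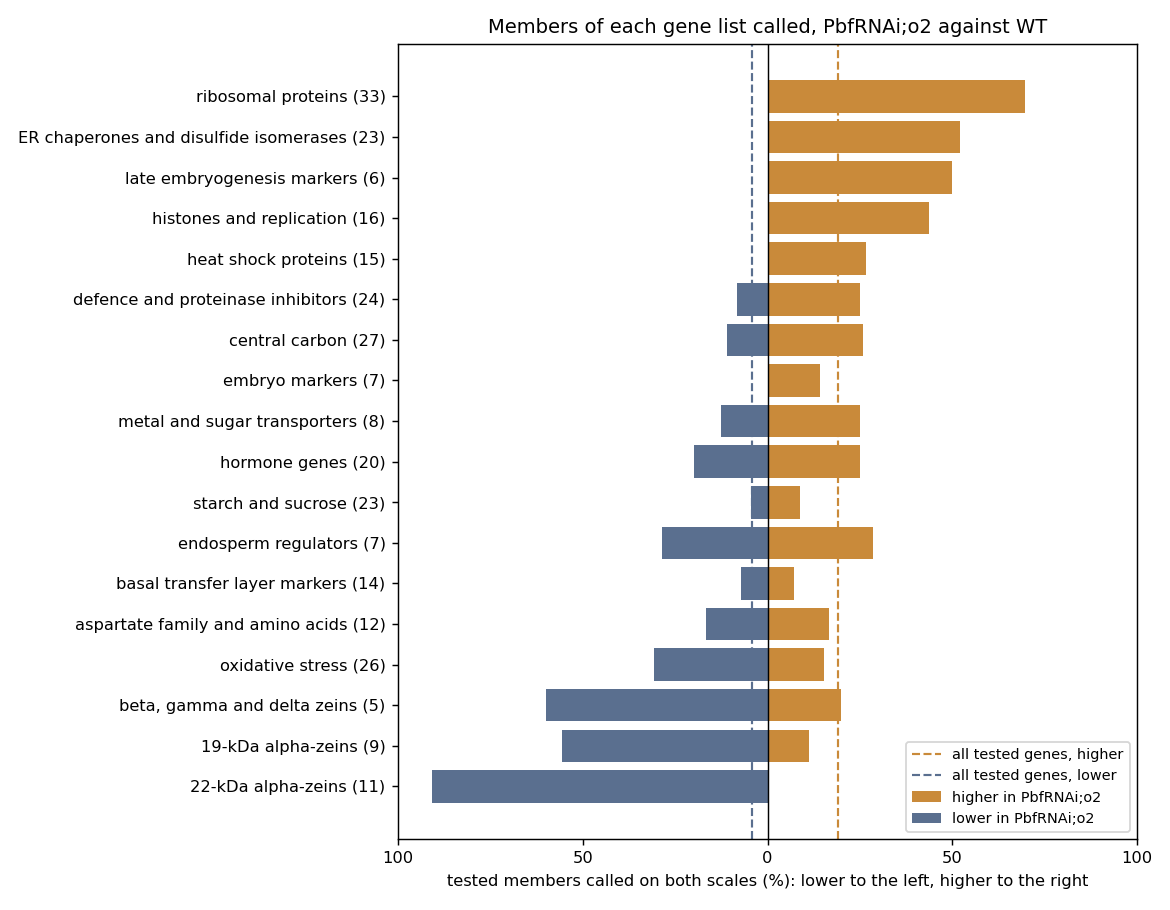
Percent of the tested members of each gene list (number in brackets, lists of 5 or more) called higher (right) or lower (left) in the double genotype on both scales, with dashed lines at the shares of all tested genes, 19.2% higher and 4.29% lower. Ribosomal protein genes stand highest with 23 of 33, the 22-kDa alpha-zeins lowest with 10 of 11, and the bar of higher beta, gamma and delta zeins is gz27, which is listed at 0 in WT.

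Starch genes changed little once libraries were scaled. Of 23 tested members 12 were higher as deposited, against 56.1% of all tested genes. On both scales 2 were higher and 1 lower, against 19.2% and 4.29%. The median log2 change was 0.46 as deposited and -0.05 after scaling. pho1, the plastidial starch phosphorylase, had 609.5, 619.9 and 599.5 FPKM in the double genotype, against 212, 162 and 153 FPKM in WT (log2 change 1.80 ± 0.14 SE as deposited and 1.23 ± 0.13 after scaling, adjusted p = 9.23e-05 and 0.000656). The 3 double-genotype values were close to each other and above all WT values. The fructokinase gene frk1 had 3.49, 5.33 and 6.03 FPKM in the double genotype, against 8.05, 11.2 and 11.6 FPKM in WT, and was lower (adjusted p = 0.00752). sh2, the large subunit of ADP-glucose pyrophosphorylase and the most abundant member in the double genotype, had 2443, 3002 and 2913 FPKM in the double genotype, against 1267, 1738 and 1620.4 FPKM in WT, higher as deposited and not called after scaling (adjusted p = 0.00362 and 0.329), but higher on both scales with the replicate block (adjusted p = 0.000758 and 0.0472). sps1, a sucrose phosphate synthase gene of low level, had 1.34, 1.58 and 1.56 FPKM in the double genotype, against 0.303, 0.478 and 0.458 FPKM in WT, and its scaled call was lost without double-genotype replicates 2 or 3 (adjusted p from 0.0514 to 0.0529). With the replicate block 7 members were higher, against 3991 of all 16028 tested genes.

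Of 27 tested genes of central carbon metabolism 7 were higher and 3 lower, against 19.2% and 4.29% of all tested genes. pdk1, a pyruvate orthophosphate dikinase gene long known to need O2, had 121, 97.6 and 100.2 FPKM in the double genotype, against 636, 469 and 464 FPKM in WT (log2 change -2.28 ± 0.16 SE as deposited and -2.85 ± 0.13 after scaling, adjusted p = 6.09e-05 and 2.07e-05). All double-genotype libraries lay below all WT libraries. sdh1, sorbitol dehydrogenase, had 5611, 4385 and 4198 FPKM in the double genotype, against 1787, 1157 and 1159 FPKM in WT (log2 change 1.81 ± 0.21 SE as deposited and 1.23 ± 0.19 after scaling, adjusted p = 0.000506 and 0.0032). eno1, enolase, had 602, 423 and 428 FPKM in the double genotype, against 175, 108 and 106 FPKM in WT (scaled adjusted p = 0.00246). gpc4, a cytosolic glyceraldehyde-3-phosphate dehydrogenase, had 2090.3, 929 and 973 FPKM in the double genotype, against 528, 183 and 182 FPKM in WT, a ratio of 4.47, or 7.30 without WT replicate 1, and its scaled call was lost without double-genotype replicates 1 or 3 or WT replicates 2 or 3 (adjusted p from 0.0523 to 0.0925). For gpc4, eno1 and sdh1 replicate 1 was the highest in both genotypes. With the replicate block 12 members were higher, against 3991 of all 16028 tested genes. With replicates 2 and 3 averaged 2 were, against 955.

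Amino acid genes gave 2 higher and 2 lower of 12 tested, against 19.2% and 4.29% of all tested genes. als1, an acetolactate synthase of branched-chain amino acid synthesis, had 89.2, 155 and 173 FPKM in the double genotype, against 328, 364 and 402 FPKM in WT (log2 change -1.43 ± 0.24 SE as deposited and -2.01 ± 0.29 after scaling, adjusted p = 0.00227 and 0.00241). orp1, a tryptophan synthase beta subunit, had 113, 82.5 and 86.3 FPKM in the double genotype, against 24.9, 14.6 and 14.5 FPKM in WT (log2 change 2.35 ± 0.23 SE as deposited and 1.79 ± 0.19 after scaling, adjusted p = 0.000235 and 0.000697). In the single genotypes orp1 had 31.2, 23.9 and 23.1 FPKM in o2 and 58.0, 41.0 and 45.3 FPKM in PbfRNAi. Of the glutamine synthetase genes, gln1 (GRMZM5G885867) had 2.71, 2.16 and 1.68 FPKM in the double genotype, against 0.0808, 0.241 and 0.266 FPKM in WT. gln5 had 0.760, 0.557 and 0.405 FPKM in the double genotype, against 2.38, 1.70 and 1.89 FPKM in WT. The first was higher and the second lower (adjusted p = 0.00034 and 0.00142). lkrsdh1, the bifunctional enzyme of lysine breakdown and a known O2 target, had 7.13, 70.3 and 65.2 FPKM in the double genotype, against 95.4, 127 and 120.4 FPKM in WT. Its groups did not overlap but it was not called (log2 change -1.76 ± 0.78, SE, adjusted p = 0.0863), and without double-genotype replicate 1, its lowest library, the adjusted p was 0.00447. With the replicate block it was lower on both scales (adjusted p = 0.0495 and 0.0308).

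Defence genes and proteinase inhibitors gave 6 higher and 2 lower of 24 tested, against 19.2% and 4.29% of all tested genes. The list was filled by symbol, and symbols that start with TPS can mean terpene synthase or trehalose phosphate synthase. psei10 and psei6, which encode cystatin-type inhibitors of cysteine proteinases, were higher. psei10 had 266, 216 and 187 FPKM in the double genotype, against 48.1, 19.2 and 15.3 FPKM in WT, a ratio of 8.09, or 12.9 without WT replicate 1 (log2 change 3.13 ± 0.39 SE as deposited and 2.57 ± 0.36 after scaling, adjusted p = 0.000628 and 0.00221). psei6 had 153, 330.0 and 366 FPKM in the double genotype, against 49.0, 55.3 and 63.9 FPKM in WT (log2 change 2.23 ± 0.32 SE as deposited and 1.66 ± 0.36 after scaling, adjusted p = 0.00109 and 0.0124). rip1, the ribosome-inactivating protein b-32 known to be under O2 control, had 4.19, 289 and 312 FPKM in the double genotype, against 1219.6, 1889 and 2139.9 FPKM in WT. Double-genotype replicate 1 was far below the other libraries, and although the groups did not overlap the call (adjusted p = 0.0345) was lost without double-genotype replicate 3 or WT replicates 1, 2 or 3 (adjusted p from 0.0625 to 0.11). The chitinase gene chiA had 8.43, 10.6 and 11.3 FPKM in the double genotype, against 0.137, 0.200 and 0.128 FPKM in WT (log2 change 3.26 ± 0.14 SE as deposited and 2.96 ± 0.16 after scaling, adjusted p = 1.35e-05 and 4.15e-05). With the replicate block 10 members of the list were higher, against 3991 of all 16028 tested genes. With replicates 2 and 3 averaged 2 were higher and 0 lower, against 955 and 325.

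Oxidative stress genes included a larger share of lower members than the background, 8 of 26 tested against 4.29% of all genes, with 4 higher. apx2, an ascorbate peroxidase, had 17.5, 16.3 and 15.5 FPKM in the double genotype, against 42.0, 41.5 and 47.6 FPKM in WT (log2 change -1.36 ± 0.10 SE as deposited and -1.91 ± 0.10 after scaling, adjusted p = 9.4e-05 and 4.54e-05). trh2, a thioredoxin h gene, had 593, 454 and 500.3 FPKM in the double genotype, against 155, 83.7 and 97.6 FPKM in WT (log2 change 2.23 ± 0.23 SE as deposited and 1.66 ± 0.20 after scaling, adjusted p = 0.000299 and 0.00122). sod3, the mitochondrial manganese superoxide dismutase, had 160.4, 145 and 141 FPKM in the double genotype, against 64.5, 69.3 and 74.5 FPKM in WT (scaled adjusted p = 0.00965). sod4, a cytosolic superoxide dismutase, had 7.68, 11.2 and 11.5 FPKM in the double genotype, against 13.6, 14.2 and 13.6 FPKM in WT, lower with its deposited-scale call lost without double-genotype replicate 2 or WT replicates 1, 2 or 3 (adjusted p from 0.0585 to 0.128). With replicates 2 and 3 averaged 5 members were lower and 2 higher.

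Named genes with the largest rises were led by BURP domain genes, a plant family of secreted or wall-associated proteins. BURP9 had 48.4, 21.1 and 23.8 FPKM in the double genotype, against 0.220, 0.0960 and 0.0429 FPKM in WT, a ratio of 260.2, or 448 without WT replicate 1 (log2 change 4.75 ± 0.29 SE as deposited and 4.44 ± 0.26 after scaling, adjusted p = 4.6e-05 and 5.8e-05). BURP6 had 46.6, 134 and 124 FPKM in the double genotype, against 3.44, 2.95 and 3.19 FPKM in WT (log2 change 4.47 ± 0.37 SE as deposited and 3.96 ± 0.41 after scaling, adjusted p = 0.000139 and 0.000623). The other tested member of the family, BURP7, was lower, with 11.8, 24.2 and 23.1 FPKM in the double genotype, against 41.1, 57.8 and 52.4 FPKM in WT (adjusted p = 0.00467). The rises also held ZIP4, a zinc and iron transporter by name, with 53.3, 54.9 and 62.5 FPKM in the double genotype, against 5.70, 5.75 and 6.68 FPKM in WT (log2 change 3.04 ± 0.11 SE as deposited and 2.51 ± 0.13 after scaling, adjusted p = 9.27e-06 and 4.15e-05). DBP2 had 61.2, 63.3 and 69.6 FPKM in the double genotype, against 5.50, 6.26 and 5.88 FPKM in WT. dedA had 53.0, 41.4 and 41.3 FPKM in the double genotype, against 5.96, 6.17 and 6.22 FPKM in WT. In both the WT libraries lay near 6 FPKM and the double-genotype libraries above 40 (adjusted p = 5.4e-06 and 1.92e-05). grp1 was the most abundant named gene outside the zeins that rose, with 6109, 6969 and 7325 FPKM in the double genotype, against 1371, 849 and 1024 FPKM in WT (log2 change 2.68 ± 0.19 SE as deposited and 2.10 ± 0.21 after scaling, adjusted p = 7.98e-05 and 0.000505).

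Outside the zeins, the gene named GTPase in the reference table (GRMZM2G001953) and rip1, described above, fell most after o2 among named genes. Their log2 changes were -4.47 ± 0.13 and -4.45 ± 1.48 (SE) as deposited, and -4.82 ± 0.13 and -5.00 ± 1.51 after scaling. GTPase had 0.478, 0.331 and 0.243 FPKM in the double genotype, against 25.8, 31.7 and 29.5 FPKM in WT (ratio of WT to double genotype 82.7, adjusted p = 4.05e-06). AMA1 had 3.59, 3.55 and 3.08 FPKM in the double genotype, against 16.6, 20.9 and 21.2 FPKM in WT (log2 change -2.22 ± 0.13 SE as deposited and -2.71 ± 0.14 after scaling, adjusted p = 4.15e-05 and 4.05e-05). scl1 had 15.8, 60.2 and 67.9 FPKM in the double genotype, against 189, 223 and 234 FPKM in WT. mde1 had 26.0, 13.5 and 12.8 FPKM in the double genotype, against 72.8, 41.2 and 40.2 FPKM in WT. Both were lower without overlap (adjusted p = 0.00572 and 0.00586). hdr10 had 13.4, 12.1 and 13.1 FPKM in the double genotype, against 30.2, 34.0 and 33.4 FPKM in WT (adjusted p = 0.000108). znf1, an abundant gene that fell by less, had 569, 469 and 514 FPKM in the double genotype, against 784, 762 and 839 FPKM in WT (log2 change -0.62 ± 0.11 SE as deposited and -1.20 ± 0.11 after scaling, adjusted p = 0.00285 and 0.00045). As the plot of the largest changes shows, the spread within a genotype is small beside the gap for most of them, and rip1 and scl1 have a low double-genotype replicate 1.

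**Figure D4:**
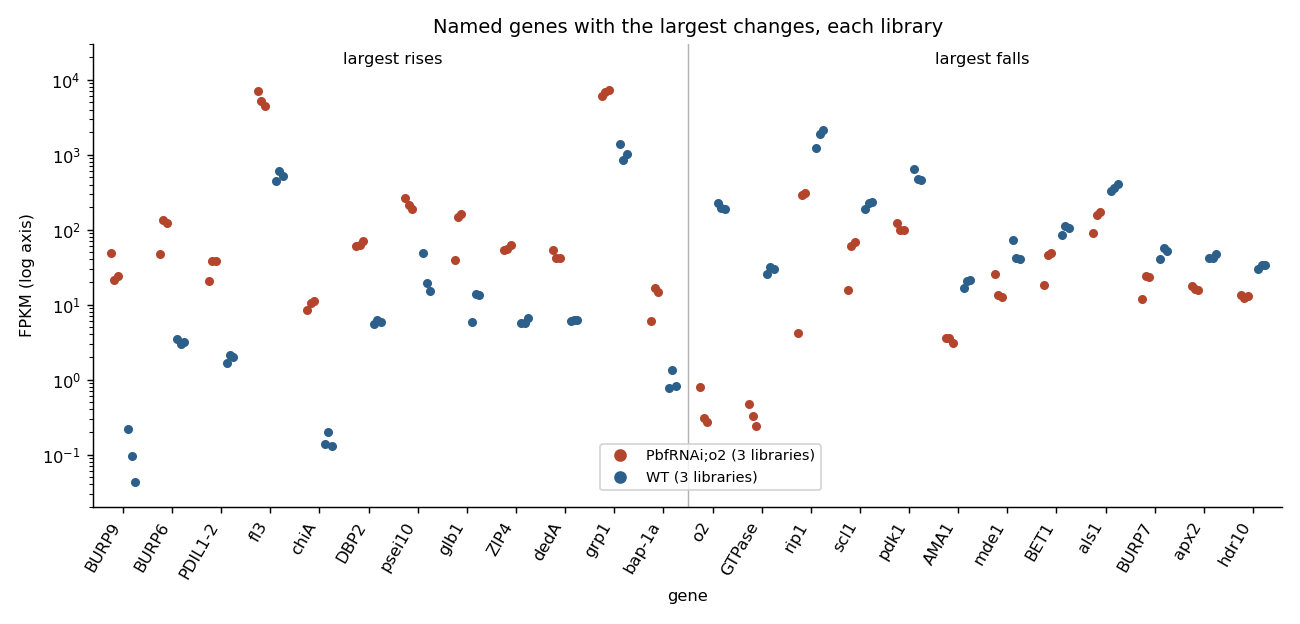
FPKM on a log axis of the 12 named genes with the largest rises and the 12 with the largest falls outside the zeins, in the 3 double-genotype libraries (left of each pair) and the 3 WT libraries (right). BURP9 and chiA stay below 0.3 FPKM in WT, o2 and GTPase below 1 FPKM in the double genotype, and rip1 at 4.19 FPKM in double-genotype replicate 1.

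Some genes were near-absent in one genotype. Called genes with a mean under 1 FPKM in WT and at least 10 FPKM in the double genotype numbered 42, and those with the reverse pattern 12. Large changes were also found in models with no name in the reference table. GRMZM2G404688 had 431, 344 and 299 FPKM in the double genotype, against 0.230, 0 and 0.220 FPKM in WT (adjusted p = 8.51e-07), and is listed at 0 in WT replicate 2. In the single genotypes it had 578, 468 and 397 FPKM in o2 and 68.6, 111 and 159.7 FPKM in PbfRNAi. GRMZM2G046382 had 464, 301 and 335 FPKM in the double genotype, against 2.27, 0.525 and 0.584 FPKM in WT, a ratio of 325, or 662 without WT replicate 1, with 1.31, 1.68 and 0.615 FPKM in o2 and 241, 215 and 257 FPKM in PbfRNAi. GRMZM2G179063 had 133, 131 and 140.1 FPKM in the double genotype, against 0.0999, 0.241 and 0.279 FPKM in WT, with 89.9, 259 and 253 FPKM in o2 and 0.253, 1.28 and 1.34 FPKM in PbfRNAi. GRMZM2G404688 thus exceeded its WT level in every library of both single genotypes, GRMZM2G046382 far exceeded it in PbfRNAi, and GRMZM2G179063 in o2. Of the unnamed models that fell, AF546187.1_FG007 had 20.5, 411 and 334 FPKM in the double genotype, against 5926, 14409 and 12044 FPKM in WT (log2 change -6.14 ± 1.07 SE as deposited and -6.71 ± 1.12 after scaling, adjusted p = 0.00262 and 0.0046). GRMZM2G437040 is listed at 0 in all 3 double-genotype libraries and had 28.6, 50.3 and 36.6 FPKM in WT, with 34.2, 60.3 and 59.2 FPKM in o2 and 0, 0.653 and 0.247 FPKM in PbfRNAi. GRMZM2G002630 had 0.614, 15.7 and 17.1 FPKM in the double genotype, against 118, 319.8 and 349 FPKM in WT (adjusted p = 0.0038).

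Set against the single genotypes, the double genotype had 2050 genes higher (12.8%) and 1168 lower (7.29%) than o2 on both scales, and 2552 higher (15.9%) and 808 lower (5.04%) than PbfRNAi. For several genes named above the level of the double genotype lay outside both. AMA1 had 3.59, 3.55 and 3.08 FPKM in the double genotype, 16.1, 15.0 and 13.9 FPKM in o2, 14.2, 17.2 and 14.9 FPKM in PbfRNAi and 16.6, 20.9 and 21.2 FPKM in WT, and was lower than in o2 and in PbfRNAi (log2 change -1.86 ± 0.12 and -1.89 ± 0.12, SE, adjusted p = 4.41e-07 and 5.94e-07). pdk1 had 238, 201 and 199 FPKM in o2 and 706, 500.2 and 501 FPKM in PbfRNAi, and the double genotype was lower than both (adjusted p = 0.00123 and 1.2e-06). No double-genotype library of either gene reached the lowest library of a single genotype.

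Higher than in both single genotypes was chiA, with 0, 0.238 and 0.0691 FPKM in o2 and 0.384, 1.29 and 2.10 FPKM in PbfRNAi (log2 change 3.33 ± 0.23 and 2.37 ± 0.23, SE, adjusted p = 6.54e-07 and 1.48e-05). DBP2 had 7.29, 17.6 and 18.5 FPKM in o2 and 15.2, 24.0 and 31.1 FPKM in PbfRNAi (adjusted p = 0.00031 and 0.00249). pho1 had 240.0, 328 and 329.7 FPKM in o2 and 313, 344 and 309.9 FPKM in PbfRNAi (adjusted p = 0.000376 and 0.000612). The double-genotype libraries of these 3 genes exceeded every library of the other 3 genotypes. PDIL1-2, with 2.96, 5.10 and 5.14 FPKM in o2 and 17.4, 12.5 and 15.3 FPKM in PbfRNAi, was higher than in o2 on both scales and higher than in PbfRNAi only as deposited (adjusted p = 0.00448, or 0.0631 after scaling).

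For other genes the double genotype stood far from one single genotype and closer to the other. GTPase had 31.3, 28.1 and 29.7 FPKM in o2 and 1.67, 0.717 and 1.05 FPKM in PbfRNAi, and in the double genotype lay far below o2 (log2 change -4.51 ± 0.16, SE, adjusted p = 2.19e-09) and below PbfRNAi by less (log2 change -0.65 ± 0.16, adjusted p = 0.00557). ZIP4 had 58.2, 91.1 and 82.4 FPKM in o2 and 6.29, 6.03 and 7.98 FPKM in PbfRNAi, and in the double genotype was higher than in PbfRNAi (log2 change 2.90 ± 0.16, adjusted p = 1.43e-07). Against o2 its log2 change was -0.41 ± 0.16 as deposited and -0.47 ± 0.15 after scaling (adjusted p = 0.0892 and 0.0363), so it was lower only after scaling. BURP6 had 226, 94.0 and 88.8 FPKM in o2 and 0.522, 1.42 and 1.04 FPKM in PbfRNAi, and its log2 change against PbfRNAi was 5.57 ± 0.42 (adjusted p = 5.1e-06), beside -0.42 ± 0.42 against o2 (adjusted p = 0.529). apx2 had 49.6, 49.1 and 51.7 FPKM in o2 and 22.5, 16.2 and 20.6 FPKM in PbfRNAi, and in the double genotype was lower than in o2 (log2 change -1.55 ± 0.12, adjusted p = 1.91e-06). Against PbfRNAi its log2 change was -0.24 ± 0.12 as deposited and -0.59 ± 0.12 after scaling (adjusted p = 0.121 and 0.00327), so it too was lower only after scaling. A difference that is not called does not show that the levels were equal.

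**Figure D5:**
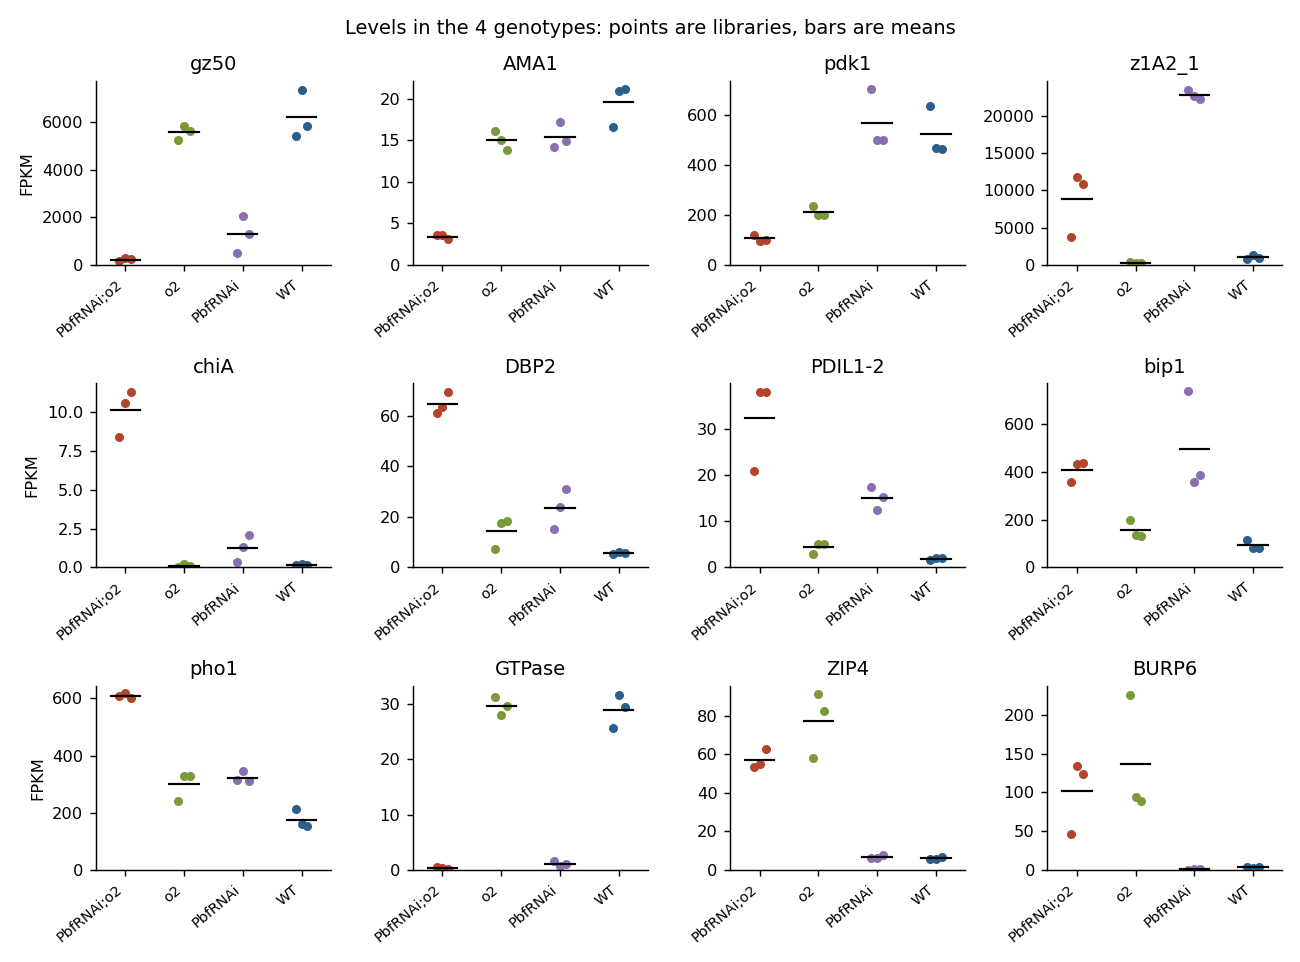
FPKM on linear axes of 12 genes named in the text in each library (points) with genotype means (bars), ordered as the double genotype, o2, PbfRNAi and WT. gz50, AMA1 and pdk1 are lowest and chiA, DBP2 and pho1 highest in the double genotype, while ZIP4 and BURP6 sit near o2 and GTPase near PbfRNAi.

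Markers of other seed compartments were checked for the tissue label, which is endosperm. Of 14 tested basal transfer layer markers 1 was higher and 1 lower, against 19.2% and 4.29% of all tested genes. Their summed level was 217, 718 and 654 FPKM in the double genotype, against 469, 674 and 600.1 FPKM in WT, with double-genotype replicate 1 the lowest. BET1 had 18.1, 46.2 and 48.8 FPKM in the double genotype, against 84.8, 112 and 106 FPKM in WT (log2 change -1.51 ± 0.36 SE as deposited and -2.07 ± 0.40 after scaling, adjusted p = 0.00929 and 0.00762). bap-1a had 5.95, 16.6 and 14.6 FPKM in the double genotype, against 0.781, 1.35 and 0.818 FPKM in WT (log2 change 2.66 ± 0.34 SE as deposited and 2.25 ± 0.37 after scaling, adjusted p = 0.000742 and 0.00428). The most abundant marker, betl-9, had 95.9, 338 and 309 FPKM in the double genotype, against 243, 344 and 297 FPKM in WT, and was not called (adjusted p = 0.433). The 5 aleurone markers summed to 129, 207 and 209 FPKM in the double genotype, against 91.8, 88.9 and 85.4 FPKM in WT, with no overlap. Most of the sum in each of these libraries was nkd1, described above, whose scaled call was lost when single libraries were left out. Of the 3 tested, 1 was higher, nkd1, and 1 lower, nkd2. Markers of the embryo surrounding region summed to 2.33, 4.20 and 4.58 FPKM in the double genotype, against 3.94, 6.26 and 4.62 FPKM in WT, overlapping, and the 1 tested member was lower. Embryo markers summed to 679.8, 870.0 and 938 FPKM in the double genotype and 589.8, 593 and 647 FPKM in WT. The oleosin gene ole1, their most abundant, had 347, 325 and 359 FPKM in the double genotype, against 343, 329.6 and 369 FPKM in WT, overlapping, and its log2 change was -0.02 ± 0.10 (SE, adjusted p = 0.896) as deposited and -0.59 ± 0.11 (adjusted p = 0.00767) after scaling. Of 7 tested embryo markers 1, glb1, was higher on both scales. Of 21 green tissue markers 2 reached the filter and 1 was higher. The part of these compartments in the results above was not tested. Zein models, which mark endosperm, were among the most abundant in both genotypes, 4 of the top 10 in the double genotype and 6 in WT.

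Neighbours of o2 were examined because a segment around a mutant allele can differ between lines. Of the 40 tested genes nearest to o2 in the order of the reference table, 20 on each side, 7 were higher and 7 lower on both scales. Of all tested genes 19.2% were higher and 4.29% lower, so the neighbours exceeded the background in lower calls and not in higher ones. Both directions together were 35.0% of the neighbours against 23.5% of all tested genes. None of the 40 was called on both scales with a scaled change of at least 8-fold on the log2(FPKM + 1) scale, against 0.611% of all tested genes. With 40 genes none carries little weight beside that share. The closest to that size, named after its values were seen, was GRMZM2G162359, which had 35.4, 27.4 and 27.0 FPKM in the double genotype, against 1.79, 1.85 and 1.88 FPKM in WT (log2 change 3.43 ± 0.13 SE as deposited and 2.96 ± 0.11 after scaling). It had 28.2, 21.8 and 18.9 FPKM in o2 and 1.29, 2.24 and 1.83 FPKM in PbfRNAi. The scale shrinks changes of low genes. GRMZM5G864001, next to o2 and also picked by its values, had a ratio of WT to double-genotype means of 29.0, with 2.79, 2.69 and 2.52 FPKM in WT. trh2, described above, is also among the 40. Whether neighbouring sequence differs between the lines was not tested.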

How the data were processed

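RNA of 12 endosperm libraries, 3 of each genotype, was depleted of ribosomal RNA and sequenced as 125 nt paired reads, per the labels' protocols. FastQC, TopHat, Bowtie2 and Cufflinks and the maize build B73 RefGen_v3 are named in the submitters' processing notes, without versions. The files deposited by the authors hold FPKM values for 39448 gene models, with no counts, so depth is unknown. Names came from a RefSeq table (assembly: Zm-B73-REFERENCE-NAM-5.0), used for names and neighbour order only; 18906 models matched, 521 of them more than once, and 1468 tested models had a name.

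Models that reached FPKM 1 in 3 or more of the 6 libraries were fitted on log2(FPKM + 1) with limma 3.58.1 (R 4.3.3, statmod 1.5.0; empirical Bayes with trend and robust options) and Benjamini-Hochberg adjustment over all 16028 genes, as deposited and after median-of-ratios scaling. Fold changes on this scale understate changes of low genes, and ratios of mean FPKM are given beside them. The double genotype was set against o2 and PbfRNAi in 1 fit of the 12 libraries with 4 means, and the adjusted p printed for it is that of the deposited scale unless stated. Shares of the FPKM sum were compared with exact permutation tests (scipy 1.17.1). In simulated data for the double genotype and WT with 16028 genes, 63.0% of genes changed by 1 on the log2 scale and 95.0% of those changed by 2 were recovered. Few genes were changed there, the noise was independent between libraries, and calls used the deposited scale only. These shares therefore do not give the recovery of calls on both scales in the data.

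Members and gene lists were chosen with earlier results of these data known. Named genes are o2, pbf1, zein models, the 12 largest rises and falls among named genes called on both scales with a mean of at least 10 FPKM in 1 genotype and no overlap, up to 3 unnamed models each way, the 5 most abundant called named genes each way, and from each list up to 4 called and 2 uncalled members by abundance. Not every gene that the rule gives is described, and 1 is not reported here. Deviations of libraries with the same replicate number correlated between the double genotype and WT at 0.408, 0.269 and 0.344 for replicates 1, 2 and 3, each over 0.1. Double-genotype replicate 2 correlated with WT replicate 3 at 0.291, and double-genotype replicate 3 with WT replicate 2 at 0.282. The check thus sets replicate 1 apart and cannot show that replicates 2 and 3 are paired by number. Deviations were taken from the genotype mean, so a distinct replicate 1 by itself makes the values among replicates 2 and 3 positive. Calls with the replicate block rest on a pairing that the labels do not state. Alternatives covered the pseudocount, the filter on low values, scaling, the replicate block, the 12-library fit, the variance settings and leaving out libraries.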

Additional observations from a re-analysis of the deposited data

How the results depend on the processing

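The calls of o2 and pbf1 GRMZM2G146283 held under each alternative tried. Counts of genes depended on scaling: against 8987 higher and 688 lower as deposited, there were 3084 and 2271 with median-of-ratios scaling, 3078 and 2271 with scaling to genes outside the 100 most abundant, and 2203 and 3567 with scaling to the FPKM sum outside them. With replicates 2 and 3 averaged into 1 library, counts were 5132 higher and 340 lower as deposited, 955 and 528 after scaling and 955 and 325 on both scales. Without replicate 1 of both genotypes, 1381 genes were lower as deposited, 5402 were higher and 4400 lower after scaling, and 5402 and 1381 on both scales. At an FPKM minimum of 5, which tests fewer genes, 330 were lower as deposited and on both scales and 1268 after scaling. Leaving out 1 library at a time gave 7102 to 9215 higher and 502 to 910 lower as deposited, 2025 to 3408 and 1311 to 2538 after scaling, and 2025 to 3408 and 502 to 910 on both scales; the fewest after scaling came without WT replicate 2. With the replicate block, which pairs libraries by number, 10314 were higher and 896 lower as deposited and 3991 and 3116 after scaling.

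Signs turned for genes not called on both scales. Under the scalings in the order above, log2 changes were -0.30, -0.30 and -0.46 for pbf1 GRMZM2G146267, -0.27, -0.27 and -0.44 for Opaque10 and -0.36, -0.36 and -0.53 for FL1. gz16 was at 0.0059 with replicates averaged. With single libraries left out, gz16 ran from -0.13 to 0.0837, FL1 from -0.0145 to 0.37, Hsp70 from -0.0967 to 1.45, betl-9 from -0.76 to 0.15 and ole1 from -0.0524 to 0.0295. betl-9 was at 0.0165 without replicate 1 of both genotypes. The remaining values were those of named genes on the deposited scale and list counts on both. Of these, 2559 stayed the same, meaning direction and call for a gene and a count within 1.5 times for a list. List counts that stayed at 0 are among them. The call was lost for 49 gene values and gained for 23, and 117 list counts moved by over 1.5 times or to or from 0. Of 94 named genes called on both scales, 43 lost that call under at least 1 of 16 alternatives other than scaling, and 5 others gained one. The causes were not tested. FPKM without counts sets the limit: neither depth nor counting error is known, and a value at 0 may be a failed estimate.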

Other observations

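Late embryogenesis genes, which protect maturing seed tissue from drying, gave 3 higher and none lower of 6 tested in the double genotype. The shares of all tested genes were 19.2% and 4.29%. The median log2 change of the 6 was 1.23 as deposited and 0.86 after scaling. RAB15, the most abundant of those called, had 1435, 1051 and 1154 FPKM in the double genotype, against 461, 301 and 353 FPKM in WT (log2 change 1.71 ± 0.19 SE as deposited and 1.14 ± 0.16 after scaling, adjusted p = 0.000392 and 0.00241). dehydrin3 was low, with 11.7, 7.09 and 6.61 FPKM in the double genotype, against 3.15, 2.36 and 2.18 FPKM in WT (limma adjusted p = 0.00178). Both were higher in every double-genotype library than in any WT library. With replicates 2 and 3 averaged, 2 of the 6 were higher.

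Hormone genes gave 5 higher and 4 lower of 20 tested, against 19.2% and 4.29% of all tested genes. The 5 called auxin response factors, which bind auxin-responsive promoters, divided into 1 higher and 4 lower. This split covers called genes only, since other tested members of the family were not called, and it is no share of the family. ARF12 had 16.3, 15.7 and 14.3 FPKM in the double genotype, against 5.45, 3.58 and 3.20 FPKM in WT (log2 change 1.72 ± 0.18 SE as deposited and 1.22 ± 0.16 after scaling, adjusted p = 0.000288 and 0.00155). ARF13 had 15.5, 15.4 and 16.6 FPKM in the double genotype, against 23.9, 21.5 and 23.0 FPKM in WT (log2 change -0.50 ± 0.10 SE as deposited and -1.05 ± 0.10 after scaling, adjusted p = 0.00405 and 0.000472). ARF28 had 11.2, 12.2 and 12.5 FPKM in the double genotype, against 20.7, 18.3 and 18.6 FPKM in WT (log2 change -0.64 ± 0.10 SE as deposited and -1.18 ± 0.11 after scaling, adjusted p = 0.0019 and 0.000411). The groups did not overlap in these 3 genes. Of 8 tested metal and sugar transporters 2 were higher, ZIP4 and the sucrose transporter gene sut2, and 1 was lower. The shares of all tested genes were again 19.2% and 4.29%. sut2 had 16.5, 15.8 and 16.8 FPKM in the double genotype, against 8.12, 7.57 and 7.27 FPKM in WT (log2 change 1.01 ± 0.10 SE as deposited and 0.48 ± 0.09 after scaling, adjusted p = 0.000252 and 0.00864).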
